A study of Homo sapiens with 6 samples.

Results

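Matrix metalloproteinases (MMPs) and their tissue inhibitors (TIMPs) were described in HT1080 cells, a human fibrosarcoma line widely used to study pericellular proteolysis. The 10 genes MMP1, MMP2, MMP3, MMP9, MMP14, MMP15, MMP16, TIMP1, TIMP2 and TIMP3 were chosen by symbol, out of 35819 genes that had the same name in the count table and the RPKM table, and 8 of the 10 had a row in both. MMP1 and TIMP3 are not analysed here. The study compared 3 libraries of wild-type (WT) cells with 3 libraries of a TOP3B knockout clone, named E2-2, whose CRISPR guide targeted exon 2 of TOP3B. TOP3B encodes topoisomerase III-beta, an enzyme acting on DNA and RNA. All 6 libraries were total RNA depleted of ribosomal RNA, from cells of the same line grown in serum-containing medium without a further treatment named in the labels. A single clone stands for the knockout, and no label states that replicates were separate cultures. The p-values therefore rest on the spread among these libraries, which may be technical.

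MMPs are zinc endopeptidases made as inactive proenzymes, in which a cysteine of the propeptide blocks the catalytic zinc. MMP1 and MMP3 are a secreted collagenase and a secreted stromelysin, MMP2 and MMP9 are the gelatinases, and MMP14, MMP15 and MMP16 are anchored in the membrane. TIMPs bind the active site of MMPs, and TIMP2 also takes part in the activation of proMMP2 by MMP14 at the cell surface. HT1080 cells are a standard source of both gelatinases.

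The estimated counts summed to between 17919106 and 20475280 per library. Knockout replicates are numbered here in the order of the S number that ends each label, since these labels carry no replicate number. Knockout replicate 3 lay apart from the other knockout libraries: over genes above a log2 CPM (counts scaled to library size) of 4, the SD of its log2 differences from knockout replicates 1 and 2 was 0.635 and 0.613, against 0.238 between these and 0.268 to 0.321 within WT. The chi-square per degree of freedom was at least 17.0 in every pair, and none looked like a duplicate deposit. The TOP3B transcript was at 24.2 ± 5.81 CPM in WT and 19.2 ± 0.774 CPM in the knockout (SD, n = 3 each) and did not pass the test (edgeR adjusted p = 0.342). Gene-level counts do not check a CRISPR edit of this kind. The mesenchymal marker VIM was at 11655 ± 593 and 11513 ± 172 CPM (SD, n = 3 each), whereas THY1 and PRRX1 of the same list were near 0. The series text names HCT116, a colon epithelial line, once for the WT cells. Of 14 epithelial markers the intestinal CDX2, CDH17, KRT20 and GPA33 had 0 counts in all 6 libraries. Others of the list were counted. KRT18 was at 16.5 CPM in WT and 26.3 CPM in the knockout, CDH1 at 1.96 and 1.63 CPM and LGALS4 at 1.71 and 2.00 CPM. EPCAM was at 0.132 CPM in WT and 0.0659 CPM in the knockout, and KRT19 at 0.540 and 0.166 CPM. CLDN7, ESRP1 and GRHL2 had means of at most 0.218 CPM in either group, and VIL1 had 0 or 1 count per library. The summed level of the list was 107 to 119 CPM in WT and 110 to 133 CPM in the knockout, mostly from KRT8. ACTB, the cytoplasmic actin of every cell, was at only 87.5 ± 9.46 CPM in WT and 70.4 ± 3.28 CPM in the knockout (SD, n = 3 each). GAPDH was at 285, 215 and 198 CPM in WT replicates 1 to 3. In knockout replicates 1 to 3 it was at 160, 220 and 964 CPM, so replicate 3 stood apart here too. No source used here states how much of each mature transcript the counting captured, so a low or 0 count need not mean a silent gene.

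Of the 8 measured members 6 had enough counts to be tested, and all of these had a lower mean level in the knockout. MMP9 fell 5.74-fold, MMP2 fell 1.78-fold and MMP16 fell 1.55-fold, while MMP14, TIMP1 and TIMP2 did not pass the test. Thus 3 of 6 tested members were called lower and none higher (quasi-likelihood test of edgeR, with p adjusted by Benjamini-Hochberg over all 13965 genes and a limit of 0.05). Of all genes tested, 7.84% were called, 4.63% lower and 3.21% higher in the knockout. The count was 3 without knockout replicate 3, a fit that called 13.2% of all genes, and 2 without any 1 of the other 5 libraries, where MMP16 was lost. These 5 fits called 223 to 388 genes of 14319 to 14367 tested. No member rose at an unadjusted p under 0.05 either, or with DESeq2, which called 3 lower and 15.7% of all genes tested. In edgeR, 3452 of all 13965 genes had an unadjusted p under 0.05, so counts at this limit say little for a few genes. The median log2 fold change of the 6 members was -0.69, beside 0.05 over all genes tested. In 5 of the 6 members the 3 knockout libraries all lay below the 3 WT libraries, a pattern seen in 17.1% of all genes tested, while 33.6% were apart in either direction.

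**Figure D1:**
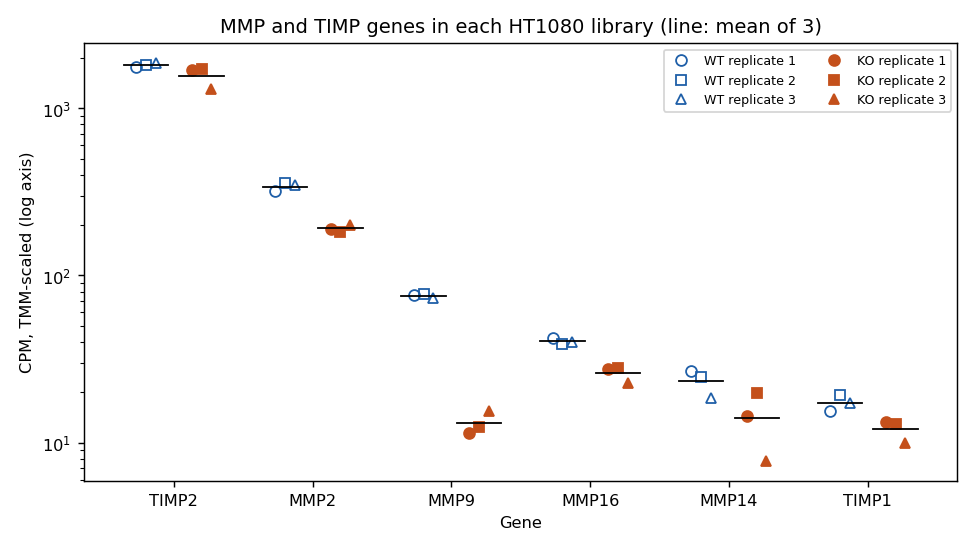
Level of each tested member in each library in CPM on a log axis, with WT libraries as open and knockout (KO) libraries as filled symbols and a line at the mean of 3. The groups are apart for every gene except MMP14, and levels are to be read within a gene because CPM is not corrected for length.

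The secreted gelatinase gene MMP9 showed the largest fold change of the members. It was at 76.0, 77.1 and 72.9 CPM in WT replicates 1 to 3, from 1335, 1523 and 1484 counts. In knockout replicates 1 to 3 it was at 11.4, 12.5 and 15.5 CPM, from 232, 248 and 303 counts. The WT libraries lay within a narrow band and every knockout library was far below it. The log2 fold change was -2.52 ± 0.15 (SE; edgeR adjusted p = 0.00102). With each library left out in turn it ranged from -2.67 to -2.43 and passed in 6 of 6 fits. MMP9 lies on the plus strand of chromosome 20 from position 46008908 to 46016561 (GRCh38, GENCODE v29). Its 3' part overlaps the antisense gene SLC12A5-AS1, which had 16 to 21 counts in WT and 5 to 12 in the knockout, and no source used here states whether strand was used in counting.

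MMP2, the other gelatinase gene, was at 317, 355 and 347 CPM in the 3 WT libraries. It was at 190, 182 and 199.9 CPM in the 3 knockout libraries. Both groups were tight and did not overlap. The log2 fold change was -0.83 ± 0.08 (SE; edgeR adjusted p = 0.00466), and it passed in 6 of 6 fits without 1 library, with values from -0.89 to -0.80. Its locus is on the plus strand of chromosome 16 from position 55389700 to 55506691. The ratio of MMP2 to MMP9 CPM within a library, which does not depend on library scaling, was 4.18, 4.60 and 4.76 across the WT libraries and 16.7, 14.6 and 12.9 across the knockout libraries. MMP9 thus fell more than MMP2 in each knockout library relative to every WT library.

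MMP3, the stromelysin that can activate other proMMPs, had 0 counts in all 6 libraries. A count of 0 allows up to 3 counts, or 0.147 to 0.171 CPM per library, for counting error only. MMP3 maps to the minus strand at 102835801 to 102843803 of chromosome 11, in a cluster with MMP1 (minus strand, 102789920 to 102798160).

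Among the membrane-type genes, MMP16 fell and MMP14 did not pass. MMP16, a transmembrane protease that can activate proMMP2, was at 42.2, 39.1 and 39.8 CPM in WT and at 27.5, 27.9 and 22.6 CPM in the knockout. Every knockout library was below every WT library. Its log2 fold change was -0.63 ± 0.13 (SE; edgeR adjusted p = 0.0358). This call was lost in 5 of the 6 fits without 1 library: the adjusted p was 0.118 without WT replicate 1, 2 or 3, and 0.0850 and 0.0905 without knockout replicates 1 and 2. Without knockout replicate 3 it was 0.0215. The log2 fold change stayed between -0.68 and -0.55 in these fits. MMP16 maps to the minus strand at 88032009 to 88328025 of chromosome 8.

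MMP14, the membrane protease that activates proMMP2 and cleaves collagen at the cell surface, was at 26.8, 24.7 and 18.6 CPM in WT. It was at 14.4, 19.7 and 7.77 CPM in the knockout, from 294, 392 and 152 counts. The groups overlapped, since knockout replicate 2 was above WT replicate 3, and knockout replicate 3 was the lowest library. The log2 fold change was -0.74 ± 0.34 (SE; edgeR adjusted p = 0.233). It was -0.46 without knockout replicate 3 and -1.07 without knockout replicate 2, and did not pass in any of the 6 fits. MMP14 lies on the plus strand of chromosome 14 from position 22836557 to 22849027. MMP15, a further membrane-type gene (plus strand of chromosome 16, 58025566 to 58046901), had 0 counts in all 6 libraries.

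The inhibitor TIMP2 was the most abundant member on both length-corrected scales used below. It was at 1765, 1805 and 1853 CPM in WT and at 1692, 1710 and 1300 CPM in the knockout. Knockout replicates 1 and 2 lay just under the WT range, and knockout replicate 3 lay well below it. The log2 fold change was -0.21 ± 0.11 (SE; edgeR adjusted p = 0.318), and -0.10 without knockout replicate 3. TIMP2 maps to the minus strand at 78852977 to 78925387 of chromosome 17, and CEP295NL, which overlaps it on the same strand, had 4 to 13 counts.

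TIMP1, a broad inhibitor of secreted MMPs, was at 15.4, 19.3 and 17.2 CPM in WT, from 270, 382 and 351 counts. In the knockout it was at 13.4, 13.0 and 9.97 CPM. The knockout libraries were all lower, by a margin smaller than the spread within WT. The log2 fold change was -0.52 ± 0.18 (SE; edgeR adjusted p = 0.142, and 0.0723 with DESeq2). TIMP1 lies on the plus strand of the X chromosome from position 47582313 to 47586789, inside SYN1 on the opposite strand, which had 0 to 7 counts. TIMP3 lies on the plus strand of chromosome 22 from position 32801701 to 32863043.

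The promoter table of RefSeq (GRCh38.p14) held 4 of the 10 members. The windows of 3 are shown: MMP14 and MMP15, a pair of membrane-type genes of which only MMP14 was counted, and TIMP1, whose knockout libraries were all lower. The RefSeq start used by the table lies 28 bases inside the GENCODE v29 gene for MMP14, 188 bases for MMP15, 123 bases for TIMP1 and 4 bases for TIMP3. Each run therefore gives only the bases before both starts, 222 for MMP14, 62 for MMP15 and 127 for TIMP1, 5′ to 3′ on the plus strand, with GC boxes (GGGCGG or its reverse complement CCGCCC) in capitals.
MMP14 (chr14:22836335-22836556): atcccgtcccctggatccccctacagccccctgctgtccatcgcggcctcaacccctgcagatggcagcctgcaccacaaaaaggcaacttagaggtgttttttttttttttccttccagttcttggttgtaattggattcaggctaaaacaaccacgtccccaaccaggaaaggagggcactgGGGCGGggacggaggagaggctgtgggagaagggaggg
MMP15 (chr16:58025504-58025565): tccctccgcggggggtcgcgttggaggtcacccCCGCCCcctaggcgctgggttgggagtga
TIMP1 (chrX:47582186-47582312): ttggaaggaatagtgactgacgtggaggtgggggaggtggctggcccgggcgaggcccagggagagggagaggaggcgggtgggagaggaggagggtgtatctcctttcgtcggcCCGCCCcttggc
The AP-1 motif TGAGTCA (reverse complement TGACTCA) and the TATA box TATAAA (reverse complement TTTATA) were in none of the 4 windows of 250 bases before the RefSeq start, TIMP3 included. Among the 35116 promoters of the table, 4.2% held the AP-1 motif and 10.7% the TATA box in these 250 bases. In the same windows GC boxes were present 1 time in MMP14, 5 times in MMP15, 2 times in TIMP1 and 5 times in TIMP3, and in 42.6% of all promoters. The GC content was 56.8% for MMP14, 74.8% for MMP15, 64.8% for TIMP1 and 72.4% for TIMP3. The letters say nothing about whether a factor binds there.

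Levels of different members were compared only per length. The deposited RPKM (reads scaled by gene length and library size) divides by a length above the annotated exon sum in every tested member. For MMP9 this length was 7651 bases, near the genomic span of 7654, whereas the exons sum to 2336 bases. For MMP16 it was 213746 bases of a span of 296017, with exons of 11558 bases. It was well below the span for MMP2 (27573 of 116992 bases), TIMP2 (35920 of 72411) and MMP14 (5934 of 12471). In WT the RPKM order was TIMP2 at 49.4 ± 1.68, MMP2 at 12.1 ± 0.684, MMP9 at 9.65 ± 0.159, TIMP1 at 5.14 ± 0.548, MMP14 at 3.86 ± 0.678 and MMP16 at 0.185 ± 0.00846 (SD, n = 3 each). The ranges of the 3 WT libraries did not overlap between any neighbours in this order, and the order was the same per kilobase of exon. In the knockout TIMP2 at 44.4 ± 5.30 RPKM and MMP2 at 7.07 ± 0.538 RPKM kept their places. MMP9, at 1.76 ± 0.341 RPKM, was now below TIMP1 at 3.72 ± 0.471 RPKM. Its range overlapped that of MMP14 at 2.38 ± 0.978 RPKM, so the order of MMP9 and MMP14 in the knockout was not settled, and per kilobase of exon MMP9 was ahead of MMP14.

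The ratio of protease to inhibitor within a library was described for pairs that interact. The ratio of MMP9 to TIMP1 CPM was 4.94, 3.99 and 4.23 in WT but 0.853, 0.961 and 1.55 in the knockout. The ratio of MMP2 to TIMP2 was 0.180, 0.197 and 0.187 in WT, as against 0.113, 0.106 and 0.154 in the knockout. Both ratios were lower in every knockout library than in every WT library, with knockout replicate 3 nearest to WT. MMP14 was at 1.52%, 1.37% and 1.00% of the TIMP2 CPM in WT and at 0.854%, 1.15% and 0.597% in the knockout, where the groups overlapped. Summed over MMP2 and MMP9 the secreted proteases were at 415 ± 19.8 CPM in WT and 204 ± 10.6 CPM in the knockout, and TIMP1 and TIMP2 together at 1825 ± 45.3 and 1580 ± 233 CPM (SD, n = 3 each). The size of a ratio between genes also depends on their lengths, so only its difference between groups is of use. These are descriptions of RNA without a test.

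**Figure D2:**
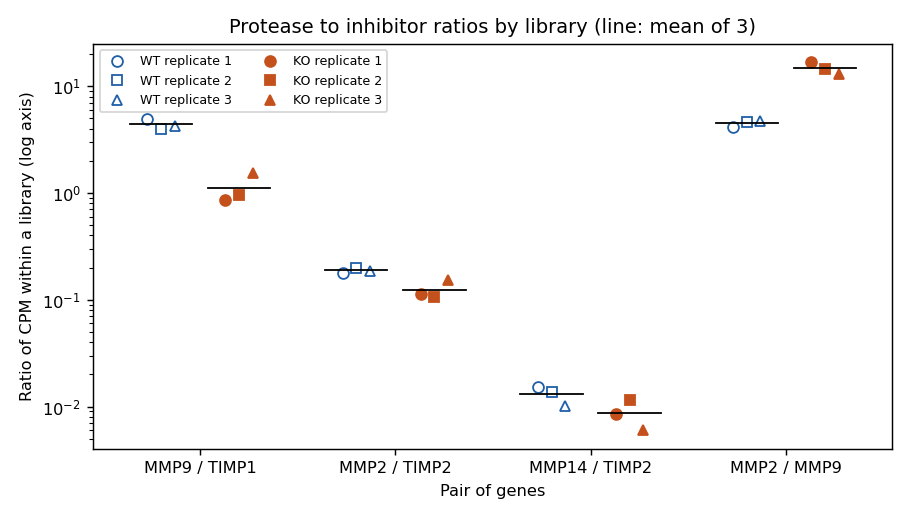
Ratio of CPM of paired genes within each library on a log axis, with WT as open and knockout (KO) as filled symbols and a line at the mean of 3. MMP9 to TIMP1 moved from 3.99 or above in WT to 1.55 or below in the knockout, while MMP14 to TIMP2 overlapped between groups.

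MMP9 fell on a chromosome where more tested genes were called higher than lower. Of the 324 tested genes on chromosome 20, 33 were higher and 10 lower, with a median log2 fold change of 0.31. Over all genes tested, edgeR called 3.21% higher and 4.63% lower. Of 23 tested genes that start within 1 Mb of MMP9, 3 were higher and none lower with edgeR, 17 had a fold change above 0, and their median was 0.40. DESeq2 called 5 of these neighbours higher and none lower, where it called 15.7% of all genes. In edgeR, 3452 of all 13965 genes had an unadjusted p under 0.05. Of these neighbours 9 were higher and 1 was lower at that limit. That 1 was SLC12A5-AS1, the antisense gene that overlaps MMP9, at a log2 fold change of -1.27 ± 0.48 (SE; edgeR adjusted p = 0.162). Whether its counts are separate from those of MMP9 was not tested. The 3 called higher in edgeR were SDC4, a cell-surface syndecan, DBNDD2 and UBE2C, a ubiquitin-conjugating enzyme of mitosis, at log2 fold changes of 0.62, 0.66 and 0.94. MMP2, MMP14, TIMP2, MMP16 and TIMP1 lie on chromosomes with medians of 0.04, 0.06, 0.10, -0.02 and -0.02. Around MMP2 none of the 5 tested genes was called in edgeR, with 1 in each direction at an unadjusted p under 0.05 and 1 called lower by DESeq2. No tested gene started within 1 Mb of MMP16.

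**Figure D3:**
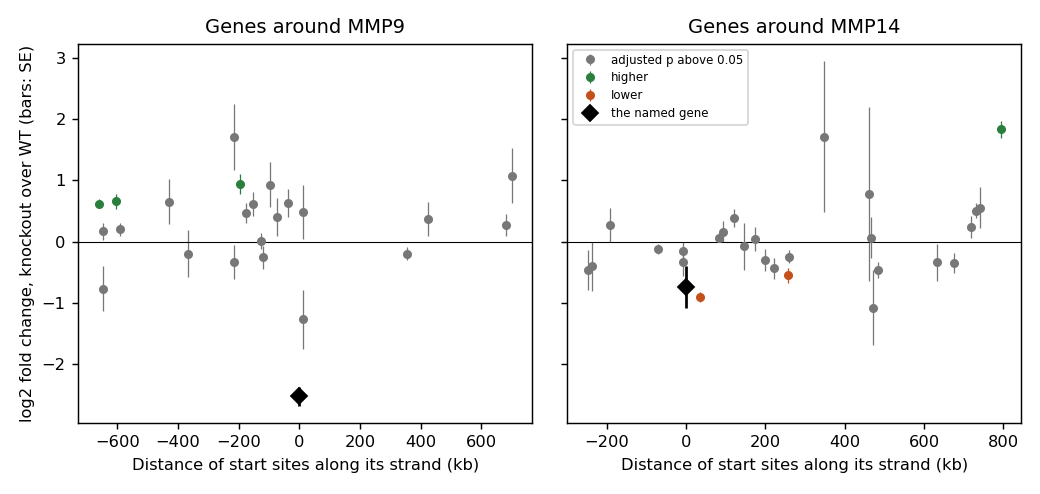
Log2 fold change, knockout over WT, with SE bars, of tested genes that start within 1 Mb of MMP9 (left) and MMP14 (right), against the distance of start sites in kb along the strand of the named gene. MMP9, the black diamond at -2.52, lies below all 23 of its neighbours, 17 of which are above 0.

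The genes whose pattern over the 6 libraries was most like that of MMP9 were UNC5B, a netrin receptor, L1CAM, a neural adhesion molecule, and CSPG4, a membrane proteoglycan. The root mean square difference of their centred log2 CPM from MMP9 was 0.0746, 0.187 and 0.194, the smallest among the 9509 genes whose mean reached 5 CPM. UNC5B was at 29.9 ± 1.40 CPM in WT and 5.08 ± 0.590 CPM in the knockout (SD, n = 3 each).

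Of 17 further MMP and TIMP genes 12 had a row and 4 could be tested, and 1 was called lower and none higher in edgeR and DESeq2 alike (2 lower and none higher at an unadjusted p under 0.05). Of all genes 7.84% were called in edgeR and 15.7% in DESeq2, and 3452 of 13965 had an unadjusted p under 0.05 in edgeR. MMP17, a membrane-anchored protease, fell 1.88-fold from 60.1, 52.9 and 53.0 CPM in WT to 25.7, 28.5 and 34.1 CPM in the knockout. The groups were well apart. Its log2 fold change was -0.91 ± 0.15 (SE; edgeR adjusted p = 0.0166). It passed in 1 of 6 fits without 1 library, the fit without knockout replicate 3, and the adjusted p was 0.0709, 0.0724 and 0.0680 without WT replicates 1 to 3 and 0.0564 and 0.0684 without knockout replicates 1 and 2. MMP7, MMP10, MMP20 and MMP25 had 0 counts throughout. MMP13, a collagenase, reached 1.43 CPM in knockout replicate 3, and the other 5 libraries held 0 to 0.683 CPM.

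Proteases and inhibitors that govern proMMP activation were represented by 10 tested genes of 15, of which 2 fell and 8 did not pass (median log2 fold change -0.05), beside 7.84% called over all genes. None rose in edgeR, in DESeq2 or at an unadjusted p under 0.05. FURIN, the convertase that cleaves proMMP14 in the secretory pathway, was at 819, 856 and 806 CPM in WT and at 464, 482 and 428 CPM in the knockout. The groups were tight and apart, with a 1.81-fold fall (log2 fold change -0.85 ± 0.08 SE, edgeR adjusted p = 0.00338) that passed in 6 of 6 fits without 1 library. SERPINB2, an inhibitor of urokinase, was 2.73-fold lower at 7.07 ± 2.69 CPM against 19.3 ± 4.73 CPM in WT (SD, n = 3 each; edgeR adjusted p = 0.0402). Among the fits without 1 library it passed only without knockout replicate 3, with an adjusted p up to 0.139 in the others, and it did not pass with limma on RPKM.

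Of 18 membrane and secreted proteins that bind or control MMPs, 10 were tested, and SPOCK1 fell while 9 did not pass (median -0.16). This share is near the 7.84% called over all genes. Without knockout replicate 3, 2 were called, in a fit that called 13.2% of all genes. None rose in edgeR, in DESeq2 or at an unadjusted p under 0.05. SPOCK1, a matrix proteoglycan of the testican family, was at 49.8 ± 10.3 CPM in WT and 21.8 ± 3.96 CPM in the knockout (SD, n = 3 each), 2.29-fold lower. It passed in 2 of 6 fits, without WT replicate 3 or knockout replicate 3, with an adjusted p up to 0.0952 in the others.

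Of 20 transcription factors known for sites in MMP promoters 18 were tested, of which 1 rose, 1 fell and 16 did not pass (median 0.08). This share is near the 7.84% called over all genes. DESeq2 called 4 higher and 2 lower, where it called 15.7% of all genes. FOSL1, which encodes an AP-1 subunit, rose 1.94-fold from 238 ± 43.6 to 461 ± 39.4 CPM, and RUNX2, a factor of bone and cartilage, was 1.93-fold lower, 65.6 ± 7.33 against 127 ± 10.8 CPM (SD, n = 3 each). FOSL1 lost its call without WT replicates 2 and 3 and knockout replicate 2 (edgeR adjusted p = 0.0757, 0.0509 and 0.0522), and RUNX2 without WT replicate 2 (edgeR adjusted p = 0.0516).

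Matrix substrates of MMPs had 13 tested genes of 20, of which 7 fell and 6 did not reach the threshold (median log2 fold change -1.01), beside 7.84% called over all genes. The count was 4 without WT replicate 2 or 3, in fits that called 223 and 256 of 14343 genes. Like the other lists, this one was chosen with earlier results of these data known, so its share is only a description. None rose in edgeR, in DESeq2 or at an unadjusted p under 0.05. FN1, the fibronectin gene, fell 3.70-fold and passed in 6 of 6 fits without 1 library. COL1A1, which encodes a type I collagen chain, was 4.65-fold lower at 1.33 ± 0.506 CPM against 6.19 ± 0.433 CPM in WT (SD, n = 3 each). COL1A2 of the same list had too few counts to be tested. SPP1, which encodes osteopontin, was 9.80-fold lower at 0.598 ± 0.289 CPM against 5.93 ± 2.86 CPM in WT (SD, n = 3 each). COL1A1 passed only without knockout replicates 1 or 3, and SPP1 only without WT replicate 2 or knockout replicate 3, with adjusted p up to 0.0696 and 0.0843 in the other fits. SPP1 also lost its call with limma-trend on log2(RPKM + 1), at a log2 fold change of -0.81 and an adjusted p of 0.0535, where 6 substrates were called.

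**Figure D4:**
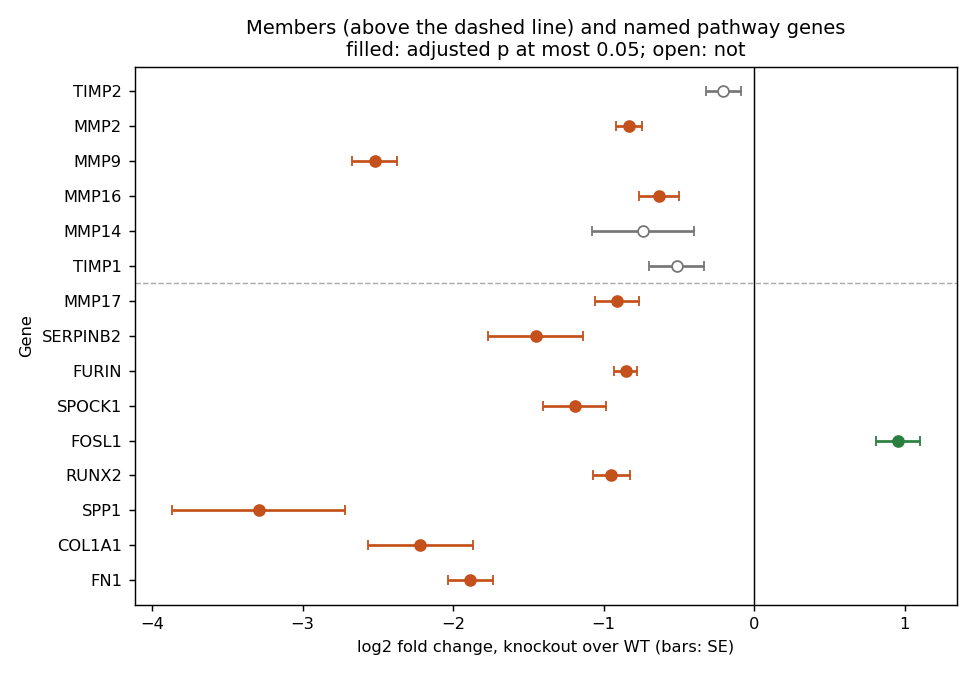
Log2 fold change, knockout over WT, with SE bars, for the 6 tested members above the dashed line and the genes named from the pathway lists below it. Filled symbols passed an adjusted p of 0.05 and open ones did not, and FOSL1 is the single gene to the right of 0.

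Leukocytes are a source of MMP9 in tissue, and their markers were checked in this culture. MPO, ELANE, CD79A and TYROBP had 0 counts in all 6 libraries and PTPRC was at 0.313 CPM in WT and 0.181 CPM in the knockout. Of 12 markers 3 were tested and none was called by edgeR, with 2 lower at an unadjusted p under 0.05 and 2 called lower by DESeq2. Over all genes tested, edgeR called 7.84% and DESeq2 called 15.7%, and 3452 of 13965 had an unadjusted p under 0.05 in edgeR. The summed level of the list was 31.5 to 37.7 CPM in WT and 17.0 to 24.2 CPM in the knockout, nearly all from CD68, CSF1R and ITGB2. The part of this difference in the MMP9 result was not tested. Of 12 mesenchymal markers 9 were tested and none was called by edgeR, with 3 lower at an unadjusted p under 0.05 and 3 called lower by DESeq2. The same shares over all genes stand beside these counts. In bulk RNA, fewer cells that express a gene and less RNA per cell cannot be told apart.

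**Figure D5:**
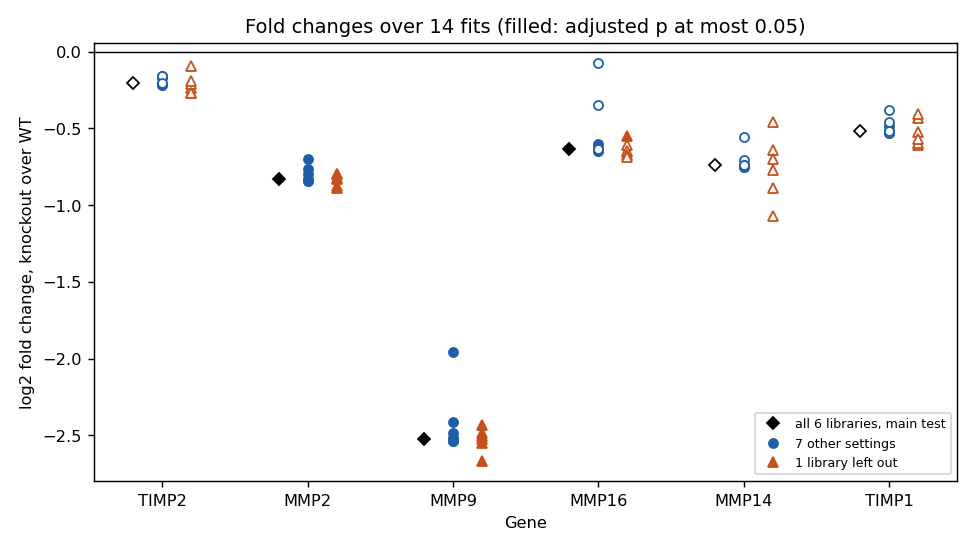
Log2 fold change, knockout over WT, of each tested member in the main test, under 7 other settings and with 1 library left out in turn (6 fits). MMP9 and MMP2 are filled, that is at an adjusted p of at most 0.05, in every fit shown, while MMP14, TIMP1 and TIMP2 are open in every fit.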

How the data were processed

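The deposited tables held 1 estimated count and 1 RPKM value per gene and library. Salmon 1.10.1 and hg19 are named in the submitters' processing notes, without the part each played, and no source used here names the annotation. Positions are GENCODE v29 (GRCh38) and no hg19 position is used. The counts, deposited as whole numbers, were used as they are. The RPKM was computed by the authors. One entry with different names in the 2 tables was left out. After filterByExpr, the quasi-likelihood F test of edgeR 4.0.16 with TMM factors (R 4.3.3, 4 residual degrees of freedom) was run on 13965 genes with Benjamini-Hochberg adjustment, and the SE follows from F. Groups follow the labels. The alternatives used DESeq2 1.42.0 and limma 3.58.1. The scripts were tested on simulated data. Members, lists and the rule for named genes were chosen with earlier results of these data known. The rule took all members, up to 3 called genes per list and direction, ranked by fold change and averaging 1 CPM or more, and the 3 genes with the pattern nearest to the member of lowest adjusted p. The windows of 1 Mb around members, and SDC4, DBNDD2, UBE2C and SLC12A5-AS1 in them, were chosen after the data were seen. Floors for a count of 0 cover counting error only.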

Additional observations from a re-analysis of the deposited data

How the results depend on the processing

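With the main test replaced by DESeq2, 2199 genes were called in place of 1095, and 6 transcription factors (4 higher, 2 lower) in place of 2. With limma-trend on log2(RPKM + 1) or log2(RPKM + 0.1), 1 activation gene was called in place of 2. The members called were 3 under DESeq2, other size factors and a filter of 1 CPM in 3 libraries, and 2 under limma and without a filter, where MMP16 had an adjusted p of 0.0526, 0.0954 and 0.0513. With RPKM + 1 its log2 fold change was -0.08, since its RPKM is far below the pseudocount. No member changed sign in any of the 13 alternatives. Without 1 library the genes called ranged from 223 (without WT replicate 2) to 1899 (without knockout replicate 3), members from 2 to 3, further MMP and TIMP genes from 0 to 1, activation genes from 1 to 3, surface proteins from 0 to 2, transcription factors from 0 to 3 and substrates from 4 to 7. Where these were 0 in edgeR, 1 to 2, 1 to 3 and 6 genes had an unadjusted p under 0.05, and DESeq2 was not run. Among all genes, 2650 to 3176 had such a p in these fits. The median log2 fold change of all genes was 0.01 to 0.08 over the fits. MMP3 and MMP15 were at 0 counts, and whether depth or the counting sets this was not tested. No paired analysis was possible because the knockout labels carry no replicate numbers.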

Other observations

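Near MMP14, genes chosen after their values were seen moved in both directions. LRP10, a receptor of the LDL receptor family that starts 35.1 kb downstream, fell from 310 to 165 CPM (log2 fold change -0.90, edgeR adjusted p = 0.00371). DHRS2, a dehydrogenase gene that starts 793.6 kb downstream, rose from 630 to 2245 CPM (log2 fold change 1.83, edgeR adjusted p = 0.00207). Of the 27 tested genes that start within 1 Mb of MMP14, 1 was higher, 2 were lower and 24 were not called (median log2 fold change -0.12). Over all genes tested, edgeR called 3.21% higher and 4.63% lower. DESeq2 called 2 of the 27 higher and 3 lower, where it called 15.7% of all genes. At an unadjusted p under 0.05 in edgeR 3 were higher and 5 lower, beside 3452 of all 13965 genes.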
